A study of Mus musculus with 41 samples.

Results

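The nuclear-encoded genes of the mitochondrial respiratory chain were followed by complex across 8 groups of sorted mouse cells. These were regulatory T (Treg) cells and ex-Foxp3 cells, which no longer showed the reporter of the Treg factor Foxp3. Members were the rows of the deposited count table whose symbol names a subunit: Nduf with a letter from a, b, c, s or v and a number (complex I), Sdha to Sdhd (complex II), Uqcr (complex III), Cox4 to Cox8 (complex IV) and Atp5 (complex V), without pseudogene symbols. The rule took 85 of 19434 genes. By symbol, 37 were assigned to complex I, 4 to complex II, 8 to complex III, 19 to complex IV and 17 to complex V. Assignment by symbol need not match the complex in which the protein is found. The rule uses symbols and no measured value, although it was set with earlier results of these data known. A further 13 rows for genes of the mitochondrial genome hold 0 counts in every library and were not analysed here, so the mitochondrially encoded subunits of complexes I, III, IV and V cannot be set beside their nuclear partners.

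Complexes I, III and IV carry electrons from NADH to oxygen and pump protons across the inner mitochondrial membrane, complex II feeds in electrons from succinate, and complex V, the ATP synthase, uses the proton gradient to make ATP. Nearly all of their subunits are encoded in the nucleus, and a few catalytic core subunits in the mitochondrial DNA. Treg cells are known to rely on oxidative phosphorylation more than effector T cells do.

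The data are RNA-seq counts from 41 libraries of sorted cells from mice aged 8 weeks. In the chimera experiment, CD25-high, Foxp3-YFP-positive Treg cells came from Uhrf1 fl/fl Foxp3 +/YFP-Cre mice (chimeric knockout, n = 4), in which Cre and reporter are expressed from the Foxp3 locus, or from Uhrf1 +/+ Foxp3 YFP-Cre/YFP-Cre controls (n = 4), which carry the Cre allele too. Uhrf1 encodes a factor that brings the maintenance DNA methyltransferase to newly replicated DNA. In the pulse-chase experiment, mice with Foxp3 GFP-CreERT2 and a Rosa26Sor CAG-tdTomato reporter, either Uhrf1 fl/fl (n = 6) or Uhrf1 +/+ (control, n = 5), ate chow with tamoxifen for 2 weeks and then standard chow for 4 weeks, so all pulse-chase groups share the inducible Cre, the reporter and tamoxifen. From each genotype 3 populations were sorted: labeled Treg cells with both GFP and tdTomato, ex-Foxp3 cells that kept tdTomato but no longer showed GFP, and post-tamoxifen Treg cells with GFP and no tdTomato, which had not switched on the reporter. The post-tamoxifen fl/fl cells therefore carry the floxed allele without the mark of recombination.

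Levels are given in CPM, counts scaled to a common library size. Total counts ran from 781437 to 5709702 per library. Uhrf1, which checks the labels in part because any reads outside the floxed exons remain, was at 8.66 to 22.3 CPM in the chimera knockout libraries and 22.3 to 32.5 CPM in their controls (log2 fold change -0.95 ± 0.25 SE, edgeR adjusted p = 0.0378). In labeled cells it was at 10.4 to 88.5 CPM in fl/fl and 11.3 to 104 CPM in control libraries (-0.15 ± 0.60, adjusted p = 0.961), so the label of the pulse-chase knockout does not show in this gene's total. In fl/fl post-tamoxifen cells Uhrf1 was at 124 to 156 CPM in numbers 1 to 3 and 18.9 to 33.6 CPM in numbers 4 to 6. It was lower in fl/fl ex-Foxp3 than in these cells (-2.36 ± 0.61, adjusted p = 0.00941). Between fl/fl and control post-tamoxifen cells the difference was 1.62 ± 0.64 (adjusted p = 0.113). Uhrf1 split by number in labeled cells too. In fl/fl labeled cells it was at 69.2 to 88.5 CPM in numbers 1 to 3 and 10.4 to 19.0 CPM in numbers 4 to 6. In control labeled cells it was at 59.3 to 104 CPM in numbers 1 to 3 and 11.3 to 15.4 CPM in numbers 4 and 5. The main fit holds no term for the number. Foxp3 was at 13.3 to 151 CPM over the ex-Foxp3 libraries and 317 to 508 CPM over the labeled ones. It was low in 2 post-tamoxifen libraries, control library 2 at 123 CPM and fl/fl library 3 at 128 CPM, against 287 to 537 CPM in the other post-tamoxifen libraries. That control library 2 also had Il2ra at 214 CPM. Control ex-Foxp3 libraries were at 179 to 201 CPM and the other control post-tamoxifen libraries at 544 to 944 CPM. Its Cd4, at 1121 CPM, lay in the control ex-Foxp3 range of 1120 to 1187 CPM, above the others at 729 to 875 CPM. Its Ctla4, at 105 CPM, lay within both ranges. Whether its cells match its label was not tested. Y-linked genes were read in chimera control library 1 and in control numbers 2 and 3 of all 3 pulse-chase populations, although the design describes the chimera mice as female.

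For members, CPM use the library size scaled by the trimmed mean of M values. A gene is called where edgeR's quasi-likelihood test gave an adjusted p under 0.05, adjusted over all genes tested (9569 in the chimera fit, 9921 in the pulse-chase fit). Of the 85 members, 76 passed the count filter in the chimera fit and 77 in the pulse-chase fit. In bulk samples, fewer cells of a type and less RNA per cell cannot be told apart. For 13 members the table gives the Ensembl identifier of a neighbouring or overlapping gene (Atp5d carries that of Cbarp, Atp5o that of Donson) while the position is that of the named gene in mm10, and 23 members overlap another protein-coding gene, so their reads may be shared.

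Short promoter windows are shown for 4 members: Cox5b and Cox7b, whose levels differed most firmly in the results that follow, and Atp5k and Cox8a, which were called as well and whose windows hold letters of factors known to bind respiratory chain promoters. Each runs from 120 bases before to 30 bases after the RefSeq start site in GRCm38.p6, 5′ to 3′ on the gene's strand. Capitals mark a match to CCGGAAG (the core bound by ETS factors such as GABPA, also read as CTTCCGG on the other strand) or, in Atp5k, the palindrome bound by NRF1.
Cox5b, chr1:36691367-36691516, plus strand: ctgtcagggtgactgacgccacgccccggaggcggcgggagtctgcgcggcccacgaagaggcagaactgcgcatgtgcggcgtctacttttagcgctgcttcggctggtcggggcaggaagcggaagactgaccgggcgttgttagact
Cox7b, chrX:106015580-106015729, plus strand: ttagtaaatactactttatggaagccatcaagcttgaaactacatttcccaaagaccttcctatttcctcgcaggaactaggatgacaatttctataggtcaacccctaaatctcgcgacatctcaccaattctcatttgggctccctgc
Atp5k, chr5:108434370-108434519, minus strand: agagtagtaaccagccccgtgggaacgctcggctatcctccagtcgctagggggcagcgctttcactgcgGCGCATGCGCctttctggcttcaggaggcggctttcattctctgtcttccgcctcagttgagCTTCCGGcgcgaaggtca
Cox8a, chr19:7217587-7217736, minus strand: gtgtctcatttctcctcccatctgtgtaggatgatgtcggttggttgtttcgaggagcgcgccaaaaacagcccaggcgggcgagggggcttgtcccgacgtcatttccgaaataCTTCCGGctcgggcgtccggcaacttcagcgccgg

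Over the full RefSeq windows, 250 bases before to 50 after a start, 69 of the 85 members had an entry. On either strand, 16 of these (23.2%) held CCGGAAG, against 12.9% of 17492 protein-coding genes, and 5 (7.25%) held the NRF1 palindrome, against 1.47%. The YY1 consensus was in 6 (8.70%) against 1.41%, and the E-box CACGTG was in 7 (10.1%) against 8.91%. These letters are a description of the sequence and not evidence of a bound factor.

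Most members were read well and a minority hardly at all. Per kilobase of exon, over all libraries, the highest member of complex V was Atp5a1, the alpha subunit of the ATP synthase, at a mean of 153 CPM per kb. Atp5h, of the same complex, was at 119 CPM per kb, and Uqcrh, the hinge protein of complex III, led its complex at 94.2 CPM per kb. Cox7a2l, which joins complexes III and IV into supercomplexes, led complex IV at 87.6 CPM per kb. Ndufa13 led complex I at 61.3 CPM per kb and Sdha, the flavoprotein of complex II, led complex II at 59.0 CPM per kb. Complex II was uneven, with Sdhb at 25.9, Sdhd at 25.1 and Sdhc at 10.2 CPM per kb.

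Isoforms known from other tissues were near or at 0. Ndufa4l2, Cox8b and Cox8c had 0 counts in all 41 libraries, which allows up to 0.0287 CPM over the pooled counts (3 counts, counting error only). Cox4i2 had 4 counts over all libraries, Cox7a1 5, Cox6b2 8, Cox7b2 12 and Cox6a2 15. Cox6a2, Cox7a1 and Cox8b are the heart and muscle forms, Cox4i2 a lung form, and Cox6b2, Cox7b2 and Cox8c are known from testis. Their ubiquitous counterparts were at 71.5 (Cox4i1), 48.4 (Cox6a1), 61.4 (Cox6b1), 19.8 (Cox7a2), 56.3 (Cox7b) and 73.2 (Cox8a) CPM per kb, and Ndufa4 was at 14.5 CPM per kb. Of the 3 genes for the same mature c-ring subunit of the ATP synthase, Atp5g3 was at 25.2, Atp5g2 at 9.09 and Atp5g1 at 3.84 CPM per kb. That order held per kilobase in the mean of each of the 8 groups. Between Atp5g1 and Atp5g2 it rests on the exon length, 4912 bases for Atp5g1 and 1675 bases for Atp5g2. By counts over all libraries Atp5g1 was above Atp5g2, at 2004 against 1611. Atp5s, a coupling factor, passed the filter in the pulse-chase fit alone. Cox4nb and Atp5sl match the rule by symbol but are Emc8, of the endoplasmic reticulum membrane complex, and Dmac2, a complex I assembly factor. Both stayed in the counts, sums and medians given for complexes IV and V.

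**Figure D1:**
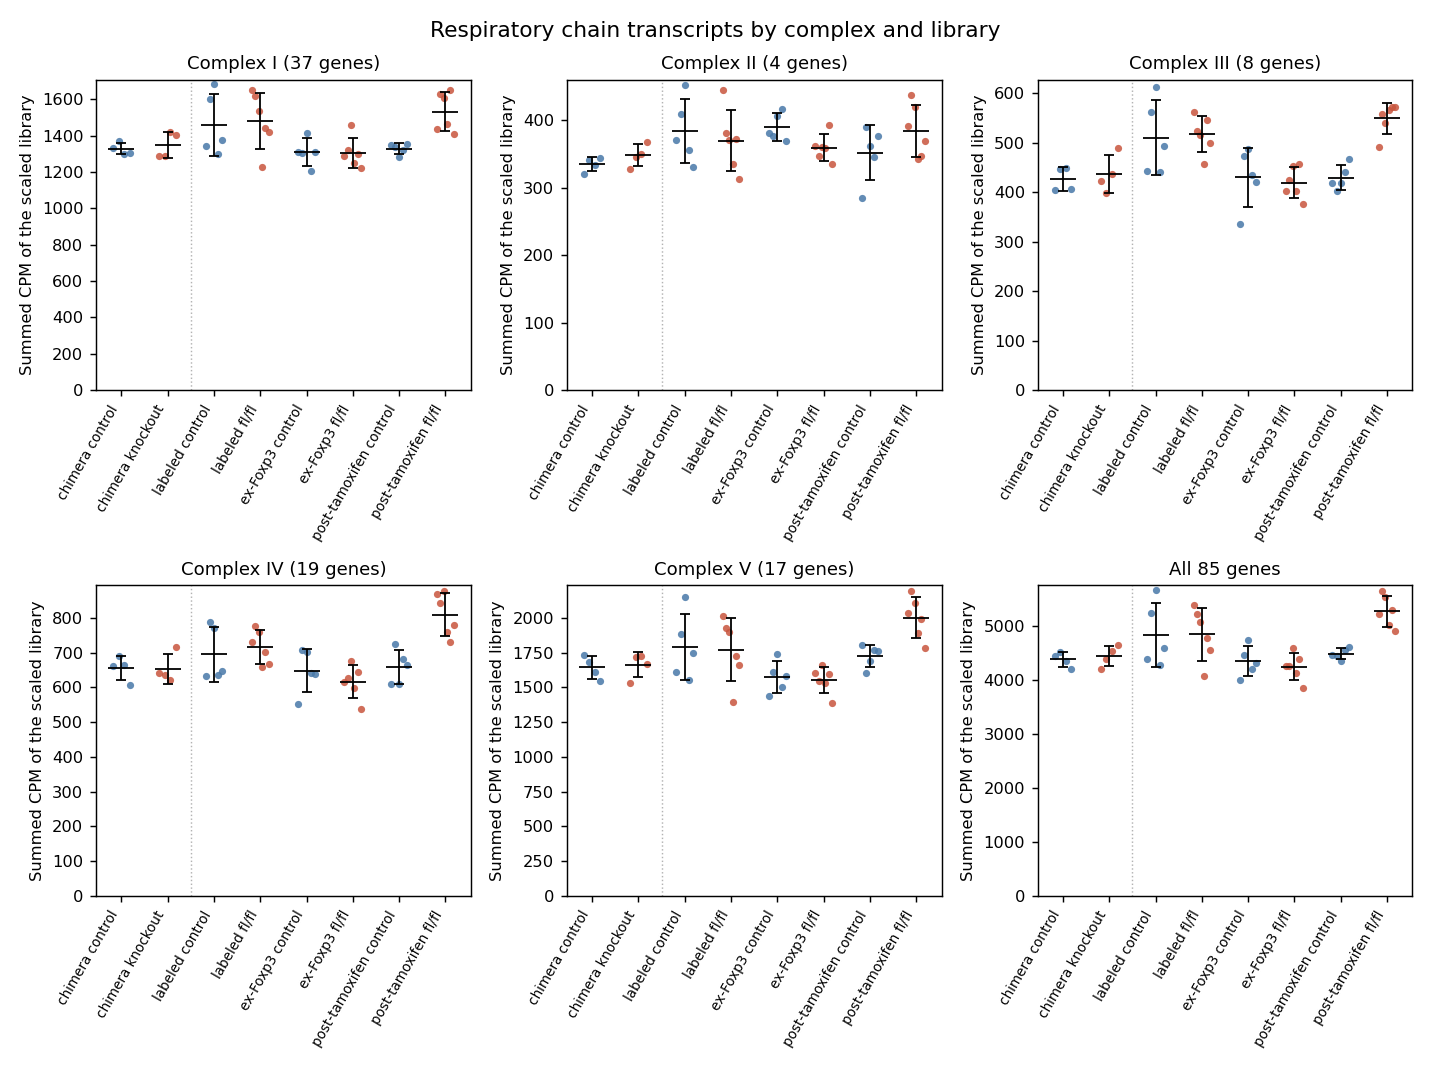
Summed CPM of the members of each complex and of all 85 genes (y axes from 0), one point per library, with the mean and SD of each group; blue is control, red is chimera knockout or fl/fl. The 6 fl/fl post-tamoxifen libraries sit at 4914 to 5657 CPM in the panel of all genes, above the 5 control post-tamoxifen libraries at 4358 to 4623 CPM.

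Loss of Uhrf1 in the chimera setting left no member called, against 2.41% of all genes tested. The members summed to 4386 ± 137 CPM in control and 4449 ± 190 CPM in knockout cells (SD, n = 4 each), and the libraries overlapped. The median member log2 fold change was 0.02, against 0.00 over all genes, and 40 of 76 members lay above 0, as did 50.2% of all genes. At an unadjusted p under 0.05, 3 members were higher and 2 lower, against 13.4% of all genes, and DESeq2 called none. The smallest p belonged to Ndufb5, an accessory subunit of complex I, at 30.3 to 39.9 CPM in knockout and 22.6 to 29.5 CPM in control libraries (0.45 ± 0.17, adjusted p = 0.175). Uqcr10, of complex III, was at a mean of 13.4 against 19.8 CPM (-0.55 ± 0.22, adjusted p = 0.222), and Ndufa12 at 28.1 against 20.8 CPM (0.41 ± 0.19, adjusted p = 0.317). Markers of B and plasma cells summed to 109 and 110 CPM of total counts in control libraries 3 and 4. They summed to 9.06 to 19.6 CPM in the other chimera libraries. Genes of the G2/M phase summed to 638 and 557 CPM in the same 2 controls and to 149 to 317 CPM in the others. The part of these cells in the comparison was not tested beyond these values. In simulated counts of this design, 53 of 100 genes changed by 1.5-fold and 81 of 100 changed by 2-fold were recovered, and 8 unchanged genes were called.

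In labeled Treg cells of the pulse-chase mice no member was called between fl/fl and control either, against 0.0101% of all genes, and the member median was 0.02. The summed level was 4853 ± 487 CPM in fl/fl (SD, n = 6) and 4839 ± 594 CPM in control cells (SD, n = 5). Without adjustment, 2 members were higher and 3 lower at p under 0.05 (9.41% of all genes), and DESeq2 called 1 member. Ndufb2, an accessory subunit of complex I, was at means of 10.99 and 17.8 CPM (-0.68 ± 0.24, adjusted p = 0.311), and Cox7c at 23.4 and 15.9 CPM (0.55 ± 0.22, adjusted p = 0.432). The smallest p was that of Cox7a2l, which was at 104, 96.9, 93.9, 102, 83.2 and 95.3 CPM in fl/fl numbers 1 to 6 and at 136, 139, 152, 138 and 105 CPM in control numbers 1 to 5. Every fl/fl library was below every control library, although control 5 lay close to fl/fl 1 (-0.49 ± 0.10, adjusted p = 0.0617). It passed without control labeled library 5 or without fl/fl labeled library 4, with 1 member called in each case, and under 4 other settings. The shares of all genes called in these fits and by DESeq2 are not reported here, so the counts are no result about the members.

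Among ex-Foxp3 cells no member was called between the genotypes (background 0.181%), and the median was -0.01. At an unadjusted p under 0.05, 2 members were higher and 1 lower (8.84% of all genes), and DESeq2 called none. Cox7a2l again had the smallest p, with 90.2 to 113 CPM in fl/fl and 110 to 150 CPM in control libraries (-0.34 ± 0.10, adjusted p = 0.162). Ndufs3, a core subunit of complex I (0.41 ± 0.20, adjusted p = 0.549), and Uqcrb of complex III (0.33 ± 0.16, adjusted p = 0.55) followed. In post-tamoxifen cells Cox7a2l was at 116 to 158 CPM in fl/fl and 127 to 163 CPM in control libraries (-0.18 ± 0.10, adjusted p = 0.266), and in chimera cells at 146 to 168 CPM in knockout and 115 to 162 CPM in control libraries (0.15 ± 0.10, adjusted p = 0.562). The gene's fl/fl value was thus under control in the 3 pulse-chase populations and not in the chimera, and none of the 4 differences passed the test. Cox7a2l lies on chromosome 17 (chr17:83501919-83514333, mm10), as does Uhrf1. The part of this shared chromosome in the values was not tested.

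**Figure D2:**
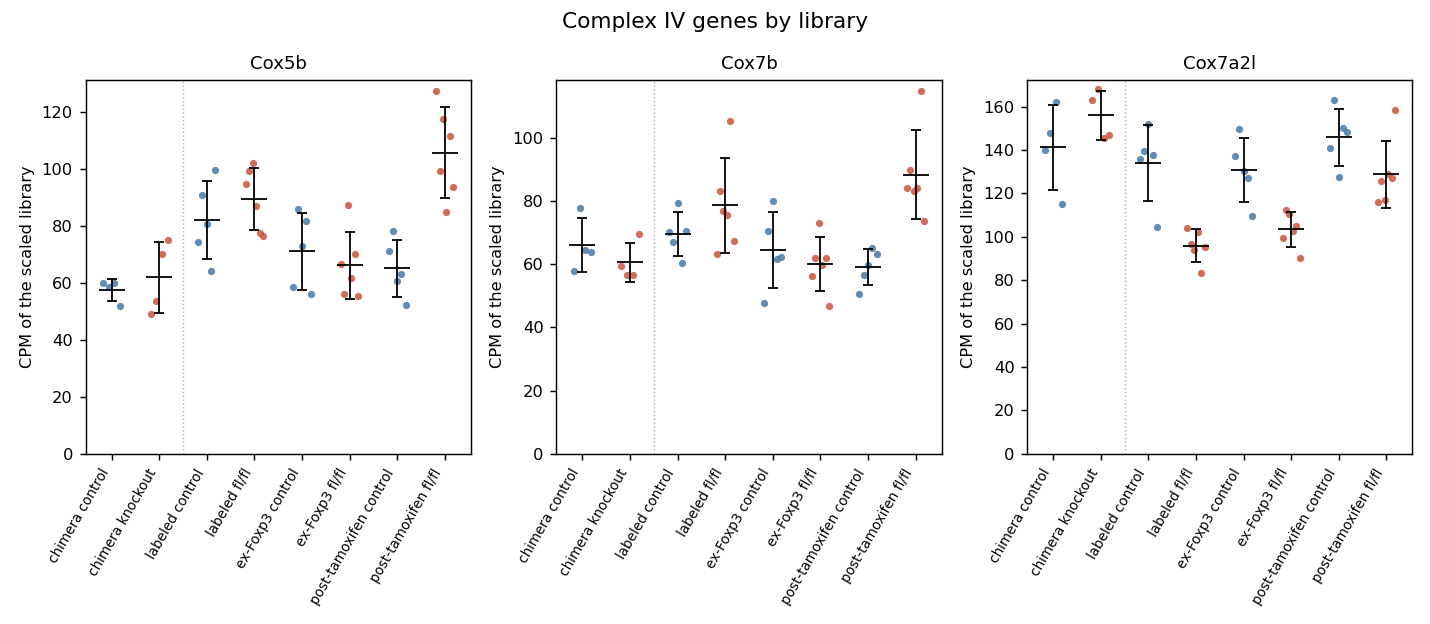
CPM of the complex IV genes Cox5b, Cox7b and Cox7a2l (y axes from 0), one point per library, with the mean and SD of each group; blue is control, red is chimera knockout or fl/fl. Cox5b and Cox7b stand highest in fl/fl post-tamoxifen cells at means of 106 and 88.3 CPM, and Cox7a2l stands lowest in fl/fl labeled cells at 96.0 CPM.

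In post-tamoxifen Treg cells 5 of 77 members rose in fl/fl against control cells and none fell, a share of 6.49% set against 7.23% of all genes called in either direction and 3.9% called higher. The called genes were Cox5b and Cox7b of complex IV, Ndufb10 and Ndufb11 of complex I and Uqcrc1 of complex III. The share called was near the background and is no result about the group. Of the fold changes, 70 of 77 members lay above 0, as did 51% of all genes, and the median member log2 fold change was 0.24 against 0.01.

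Cox5b, a zinc-binding nuclear subunit of cytochrome c oxidase (chr1:36691487-36693385, mm10), was at 127, 99.3, 118, 84.9, 111 and 93.4 CPM in fl/fl numbers 1 to 6. In control numbers 1 to 5 it was at 71.0, 78.1, 60.7, 63.2 and 52.2 CPM. The lowest fl/fl library was above the highest control (0.70 ± 0.14, adjusted p = 0.00227). Cox7b, a small subunit of the same complex encoded on the X chromosome (chrX:106015700-106022450), was at 84.0, 89.7, 83.3, 84.0, 115 and 73.7 CPM against 50.7, 56.6, 59.9, 65.0 and 63.2 CPM. These groups did not overlap either (0.56 ± 0.13, adjusted p = 0.00836). The promoter windows printed for both genes hold none of the motif letters searched.

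The other 3 called genes overlapped or nearly touched between the genotypes. Ndufb11 (chrX:20615326-20617619), an accessory subunit of the complex I membrane arm, was at 52.0, 49.1, 66.8, 58.2, 84.0 and 62.2 CPM in fl/fl and 30.4, 41.3, 50.0, 41.9 and 41.7 CPM in control cells (0.56 ± 0.17, adjusted p = 0.0332). Ndufb10 (chr17:24722060-24724478), of the same arm, was at 59.3, 74.6, 73.8, 85.9, 110 and 58.7 CPM against 39.3, 55.0, 59.5, 56.4 and 54.9 CPM (0.50 ± 0.15, adjusted p = 0.0332). Uqcrc1 (chr9:108936648-108949640), a core subunit of complex III, was at 145, 104, 115, 129, 98.2 and 140 CPM against 91.3, 83.6, 93.2, 86.0 and 97.1 CPM, with no overlap (0.44 ± 0.13, adjusted p = 0.0383).

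By complex, the median was 0.20 for complex I (33 of 36 above 0), 0.21 for complex II (4 of 4), 0.37 for complex III (8 of 8), 0.40 for complex IV (10 of 12) and 0.24 for complex V (15 of 17). Complex V had no called member. Its nearest were Atp5h, of the peripheral stalk (0.36 ± 0.12, adjusted p = 0.056), and Atp5d, the delta subunit of the rotor (0.41 ± 0.14, adjusted p = 0.0646). Sdha, at 211 to 280 CPM in fl/fl and 170 to 278 CPM in control cells, differed by 0.05 ± 0.10 (adjusted p = 0.827), and Sdhb, Sdhc and Sdhd by 0.27 ± 0.17, 0.15 ± 0.19 and 0.36 ± 0.24 (adjusted p = 0.348, 0.678 and 0.382).

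The summed level was 5221, 5657, 5549, 5017, 5296 and 4914 CPM in fl/fl numbers 1 to 6 and 4463, 4459, 4358, 4558 and 4623 CPM in control numbers 1 to 5. The lowest fl/fl sum was above the highest control sum. Other transcripts moved with these libraries. The summed G2/M genes, a measure of dividing cells, were at 3567 to 5852 CPM of total counts in fl/fl post-tamoxifen numbers 1 to 3, at 353 to 610 CPM in numbers 4 to 6 and at 208 to 1653 CPM in the controls. In numbers 4 to 6 the member sums were 4914 to 5296 CPM. Their G2/M sums were above those of the same-numbered controls 4 and 5, at 239 and 208 CPM, and below that of control 1, at 1653 CPM. With numbers 4 and above alone, 54 of 77 members were above 0, the median was 0.16, and Cox5b was the 1 member called. With numbers 1 to 3 alone, 68 were above 0 and 7 were called. Shares of all genes called in these subsets are not reported here.

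Markers of other cells varied between the libraries, and their sums overlapped between the genotypes. The 11 myeloid markers in the table summed to 367 to 1022 CPM in the fl/fl post-tamoxifen group, with none at 0 throughout, and to 324 to 797 CPM in the control group, with 1 at 0 throughout. Ctss, which other cells express too, gave 271 to 390 CPM of these in fl/fl and 218 to 336 CPM in control libraries. Csf1r, a macrophage marker, was at 64.6, 95.1, 304, 41.1, 38.9 and 19.7 CPM in fl/fl and 213, 3.90, 82.9, 94.3 and 143 CPM in control libraries. The 7 B and plasma cell markers summed to 15.0 to 593 CPM in fl/fl and 14.6 to 88.3 CPM in control cells, none of them at 0 in either group. Without control library 2 and fl/fl library 3, the post-tamoxifen libraries of low Foxp3, 3 members were called and 68 of 77 were above 0. The shares of all genes called or above 0 in that fit are not reported here, so these counts are no result about the members. The part of dividing cells, myeloid cells and B cells in the difference was not tested beyond these values.

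The count of called members moved with single libraries, and is given without the share of all genes called in each fit. It was 2 without control post-tamoxifen library 1 or library 5, 3 without control library 4 or fl/fl library 3, and 10 without fl/fl library 4. Cox5b and Cox7b kept their calls without any 1 library, while Ndufb10, Ndufb11 and Uqcrc1 lost theirs in at least 1 such fit. Without control numbers 2 and 3, the mice with Y-linked reads, of which the fl/fl groups have none, 2 were called and these 3 genes were not. They were not called either with the compared groups alone, or with numbers 1 to 3 or 4 and above alone, and Ndufb11 and Uqcrc1 were lost with the number as a block. Cox7b was lost with numbers 4 and above alone. In simulated counts of this comparison, 36 of 100 genes changed by 1.5-fold and 67 of 100 changed by 2-fold were recovered, and 1 unchanged gene was called.

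**Figure D3:**
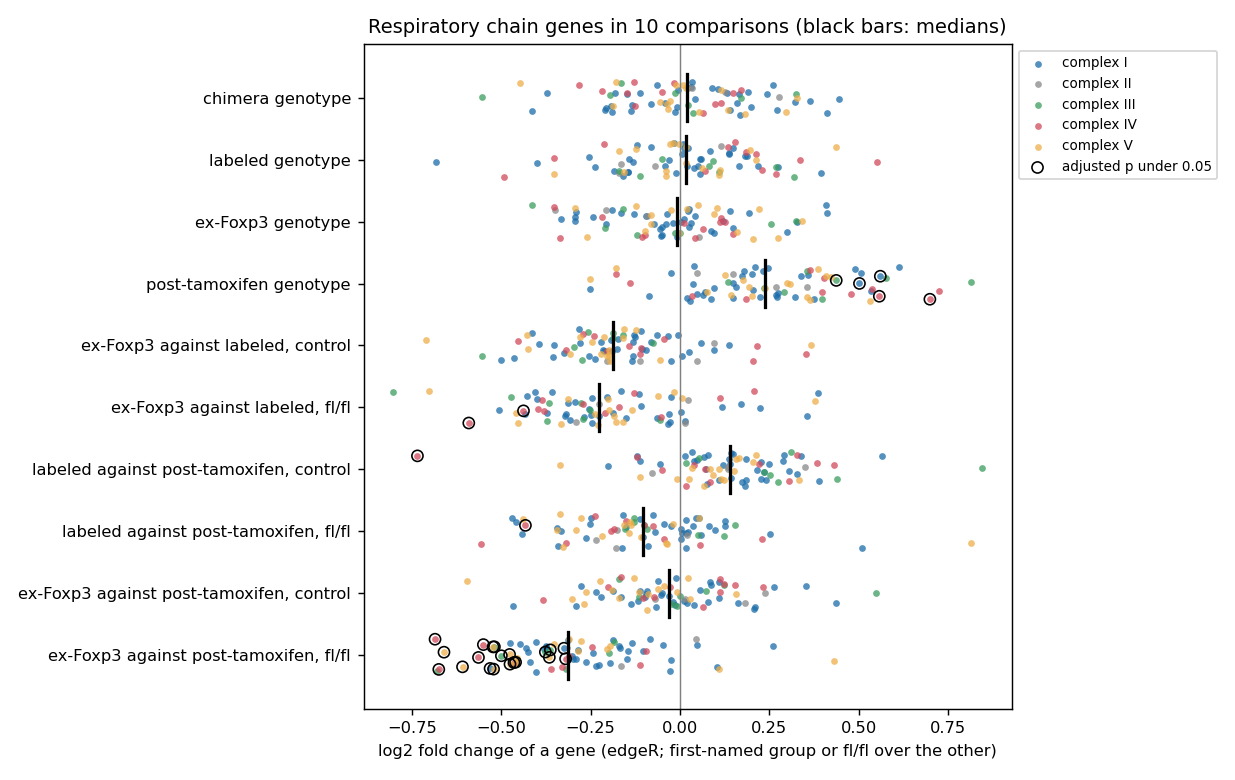
Log2 fold change of each member tested in 10 comparisons (x axis, edgeR), one point per gene coloured by complex, with a circle where the adjusted p was under 0.05 and a black bar at the median. The bars lie at 0.24 for the post-tamoxifen genotype and at -0.31 for ex-Foxp3 against post-tamoxifen fl/fl cells, and between -0.23 and 0.14 in the other 8.

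Within genotypes, ex-Foxp3 cells, which had lost the Foxp3 reporter but still held some Foxp3 reads, were compared with the labeled Treg cells of the same mice. In control mice no member was called (background 0.353%), the median was -0.19 and 66 of 77 members lay below 0, while 49.9% of all genes lay above it. Without adjustment, 6 members were lower and none higher at p under 0.05 (9.6% of all genes), and DESeq2 called none. The smallest p was that of Uqcrb, a subunit of the ubiquinone-binding part of complex III, at 41.3, 47.8, 61.8, 49.0 and 50.9 CPM in ex-Foxp3 and 70.6, 69.4, 96.1, 61.9 and 71.5 CPM in labeled numbers 1 to 5. The sets just failed to overlap (-0.55 ± 0.17, adjusted p = 0.155), and with the mouse as a block the gene passed (-0.56 ± 0.14, adjusted p = 0.0205, with 2.13% of all genes called). Ndufb9 (-0.41 ± 0.17, adjusted p = 0.379) and Atp5j2 (-0.43 ± 0.18, adjusted p = 0.399) followed.

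In fl/fl mice 2 of 77 members fell in ex-Foxp3 cells, a share of 2.6% against 2.04% of all genes called lower and 4.09% called in either direction. The median was -0.23 and 64 members lay below 0, while 51.2% of all genes lay above it. Cox8a, the ubiquitous form of the smallest cytochrome c oxidase subunit, was at 31.7, 51.6, 40.5, 42.6, 44.8 and 30.7 CPM in ex-Foxp3 and 61.0, 55.5, 67.7, 78.6, 48.4 and 56.6 CPM in labeled numbers 1 to 6. Within each mouse the ex-Foxp3 value was the lower one (-0.59 ± 0.17, adjusted p = 0.0406). Cox5b was at a mean of 66.1 ± 11.9 against 89.4 ± 10.9 CPM (SD, n = 6 each, -0.44 ± 0.13, adjusted p = 0.0484). With the mouse as a block 5 members were called, the added ones being Atp5g3, Cox7b and Uqcrh, and 9% of all genes were called. Without any block, leaving out single libraries gave 0 to 5 calls. The count was 0 on leaving out labeled library 3, or ex-Foxp3 library 1 or 6. It was 1 on leaving out labeled library 1 or 2, or ex-Foxp3 library 2 or 5, and 5 on leaving out labeled library 4 or 6. The share of all genes called in each of these fits is not reported here, so the counts are no result about the members.

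The difference between the genotypes in this step was tested directly and no member was called, as was no gene at all (median -0.06, edgeR interaction). At an unadjusted p under 0.05, 1 member was higher and 3 were lower (2.38% of all genes), and DESeq2 called none. The smallest p were those of Uqcrb (0.50 ± 0.22), Cox6a1 (-0.58 ± 0.26) and Ndufb8 (-0.60 ± 0.27), each with an adjusted p of 1.

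Labeled and post-tamoxifen Treg cells, both Foxp3-positive at the time of sorting, were compared within each genotype. In control mice the member median was 0.14 with 66 of 77 above 0 (50.4% of all genes), and in fl/fl mice -0.10 with 25 above 0 (47% of all genes). The control median was -0.02 with numbers 4 and above alone and was also just below 0 without control numbers 2 and 3. One member was called in each, against 7.93% and 4.58% of all genes. In controls it was Cox7c, a small subunit of complex IV, at 14.3, 16.5, 15.3, 21.9 and 11.3 CPM in labeled and 43.1, 23.1, 21.8, 27.8 and 22.9 CPM in post-tamoxifen cells. The value of 43.1 CPM, in library 1, stands apart (-0.73 ± 0.23, adjusted p = 0.0373). Without that library, or without control labeled library 1, 2, 3 or 5 or post-tamoxifen library 4 or 5, no member was called. The shares of all genes called in these fits are not reported here. With the mouse as a block, although not every pair of same-numbered libraries deviated together here, 4 were called, the added ones being Uqcrb, Uqcr11 and Cox8a, all higher in labeled cells, and 12.9% of all genes were called.

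In fl/fl mice the called gene was Cox7a2l, at 104, 96.9, 93.9, 102, 83.2 and 95.3 CPM in labeled and 116, 126, 117, 129, 127 and 158 CPM in post-tamoxifen numbers 1 to 6. All labeled libraries were below all post-tamoxifen libraries (-0.43 ± 0.10, adjusted p = 0.00588), and the call held without any 1 library. In the control mice the same contrast was -0.12 ± 0.10 (adjusted p = 0.583), and the difference between the genotypes did not pass (-0.31 ± 0.14, adjusted p = 0.621). With the mouse as a block Atp5b, the catalytic beta subunit of the ATP synthase, passed as well in fl/fl mice (-0.28 ± 0.09, adjusted p = 0.0483, 8.11% of all genes called). Over all members, the test of the difference between the genotypes called none (background 0.0202%), with a median of -0.21 and 9 of 77 above 0, as against 47.6% of all genes. Without adjustment, 11 were lower and 1 higher at p under 0.05 (7.73% of all genes), and DESeq2 called none. Cox5b (-0.56 ± 0.20, adjusted p = 0.529), Cox5a (-0.94 ± 0.35, adjusted p = 0.563) and Ndufb5 (-0.65 ± 0.26, adjusted p = 0.576) had the smallest p.

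The comparison with the most called members was that of ex-Foxp3 and post-tamoxifen cells in fl/fl mice, where 20 of 77 fell and none rose. That is 26% of the members, against 9.39% of all genes called lower, 5.8% called higher and 15.2% in either direction. The median was -0.31 against 0.01 over all genes, and 6 members lay above 0, as against 51.7% of all genes. By complex, 2 of 36 fell in complex I, 1 of 4 in complex II, 4 of 8 in complex III, 6 of 12 in complex IV and 7 of 17 in complex V. In control mice the same comparison called none (background 5.33%), with a median of -0.03 and 31 above 0 (49.2% of all genes). At an unadjusted p under 0.05, 1 member was lower and none higher (15.5% of all genes), and DESeq2 called none. Atp5b (-0.27 ± 0.11, adjusted p = 0.208), Sdha (0.18 ± 0.10, adjusted p = 0.4) and Atp5g2 (-0.60 ± 0.33, adjusted p = 0.417) had the smallest p there. The control comparison includes post-tamoxifen library 2, whose Foxp3, Il2ra and Cd4 lay near the ex-Foxp3 values. Without that library 0 members were called, and the share of all genes called in that fit is not reported here. The fl/fl contrast shares its post-tamoxifen libraries with the genotype comparison described before, so the same libraries bear on both.

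In complex V the smallest p belonged to Atp5b, at 261, 248, 289, 279, 300 and 269 CPM in ex-Foxp3 and 386, 427, 450, 378, 337 and 309 CPM in post-tamoxifen numbers 1 to 6. The groups did not overlap (-0.48 ± 0.10, adjusted p = 0.00158). Atp5k, the small subunit e of the membrane part (chr5:108433244-108434448), showed the largest change among the called members of its complex. It was at 25.4, 23.3, 31.9, 24.8, 21.8 and 30.3 CPM against 44.0, 38.7, 31.7, 39.2, 50.4 and 46.3 CPM, and only post-tamoxifen library 3 reached into the ex-Foxp3 range (-0.66 ± 0.16, adjusted p = 0.00451). Its promoter window, shown with the other sequences, holds both an ETS and an NRF1 match. Atp5d was at means of 69.8 ± 10.9 and 100.4 ± 8.12 CPM (SD, n = 6 each) with no overlap (-0.52 ± 0.13, adjusted p = 0.00601). Atp5a1 was at 387 to 452 CPM against 491 to 619 CPM, again with no overlap (-0.37 ± 0.10, adjusted p = 0.0111). Atp5l, Atp5o and Atp5g3 fell as well. Of the c-ring genes, Atp5g1 (-0.35 ± 0.23, adjusted p = 0.319) and Atp5g2 (-0.46 ± 0.30, adjusted p = 0.323) were not called.

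In complex IV, Cox5b was at 66.4, 55.9, 87.2, 61.6, 70.2 and 55.3 CPM in ex-Foxp3 cells, against the 84.9 to 127 CPM of the post-tamoxifen cells. Ex-Foxp3 library 3 overlapped with post-tamoxifen library 4 (-0.67 ± 0.13, adjusted p = 0.000466). Cox7b was at 46.8 to 72.9 CPM against 73.7 to 115 CPM with no overlap (-0.55 ± 0.13, adjusted p = 0.00254). Cox7a2l was at 90.2 to 113 CPM against 116 to 158 CPM (-0.32 ± 0.10, adjusted p = 0.0192). Cox5a, a matrix-side subunit, showed the largest change among the called members of its complex at means of 22.3 ± 6.01 and 35.6 ± 11.3 CPM (-0.69 ± 0.23, adjusted p = 0.0399), with the high values in post-tamoxifen numbers 1 to 3. Cox6a1 and Cox6b1 fell too.

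In complex III the called members were Uqcrfs1, the Rieske iron-sulfur protein, Uqcrc1 and Uqcrc2, the core subunits, and Uqcrh. Uqcrfs1 was at 33.4 to 48.5 CPM in ex-Foxp3 and 46.0 to 72.5 CPM in post-tamoxifen cells (-0.50 ± 0.14, adjusted p = 0.0113). Uqcrh was at 83.3 to 123 CPM against 98.0 to 216 CPM and showed the largest change of those called in its complex (-0.52 ± 0.17, adjusted p = 0.0394). Uqcrc2 was at means of 57.4 ± 7.57 and 73.8 ± 10.9 CPM (-0.38 ± 0.12, adjusted p = 0.035). The ubiquinone-binding and small subunits Uqcrb, Uqcrq, Uqcr10 and Uqcr11 were not called.

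In complex II, Sdhb, the iron-sulfur subunit, was at 62.2, 54.7, 52.9, 41.9, 57.5 and 35.3 CPM against 69.3, 73.4, 80.3, 64.6, 74.3 and 57.1 CPM (-0.46 ± 0.16, adjusted p = 0.0483). Every mouse had the lower value in ex-Foxp3 cells. Sdha, which binds the flavin cofactor, showed no such difference at 238 to 271 CPM and 211 to 280 CPM (0.04 ± 0.09, adjusted p = 0.808). The membrane anchors Sdhc (-0.16 ± 0.18, adjusted p = 0.586) and Sdhd (-0.47 ± 0.23, adjusted p = 0.169) were not called. In complex I, Ndufb11 was at means of 42.7 ± 7.49 and 62.0 ± 12.6 CPM (-0.53 ± 0.16, adjusted p = 0.0179).

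The G2/M genes summed to 343 to 1014 CPM of total counts in fl/fl ex-Foxp3 libraries and 353 to 5852 CPM in fl/fl post-tamoxifen libraries. The myeloid markers summed to 236 to 286 CPM, with 1 of 11 at 0, against 367 to 1022 CPM, and the B and plasma cell markers to 38.6 to 56.6 CPM against 15.0 to 593 CPM. The part of these cells in the difference was not tested.

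Single libraries and number sets changed these counts. The calls of 10 genes held without any 1 library (Cox5b, Atp5b, Cox7b, Atp5k, Atp5d, Atp5a1, Uqcrfs1, Atp5l, Atp5o and Ndufb11) and the other 10 were each lost in at least 1 such fit. Without ex-Foxp3 library 6, 11 members were called, and without post-tamoxifen library 2, 13. Mouse numbers 1 to 3 alone gave 8 calls and numbers 4 to 6 alone gave 13. For these smaller fits the share of all genes called is not reported here, so the counts are not results about the members. With the mouse as a block 23 were called, with Atp5h, Ndufv1 and Atp5c1 added, while 20.8% of all genes were called. In simulated counts of this comparison, 35 of 100 genes changed by 1.5-fold and 80 of 100 changed by 2-fold were recovered, and 9 unchanged genes were called. The simulated libraries were not paired by mouse.

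The difference between the genotypes in this step was also tested. No member was called, against 0.0504% of all genes, with a median of -0.24 and 11 of 77 above 0, as against 49.8% of all genes. Without adjustment, 17 were lower and none higher at p under 0.05 (9.79% of all genes), and DESeq2 called none. Cox5b (-0.80 ± 0.20) and Cox7b (-0.66 ± 0.19) had the smallest p, each with an adjusted p of 0.247, followed by Atp5o (-0.68 ± 0.23, adjusted p = 0.346). With the mouse as a block Cox5b and Cox7b passed, at adjusted p = 0.0144 and 0.0375, and 1.01% of all genes were called. Without control post-tamoxifen library 2, 1 member passed without the block, and the share of all genes called in that fit is not reported here.

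**Figure D4:**
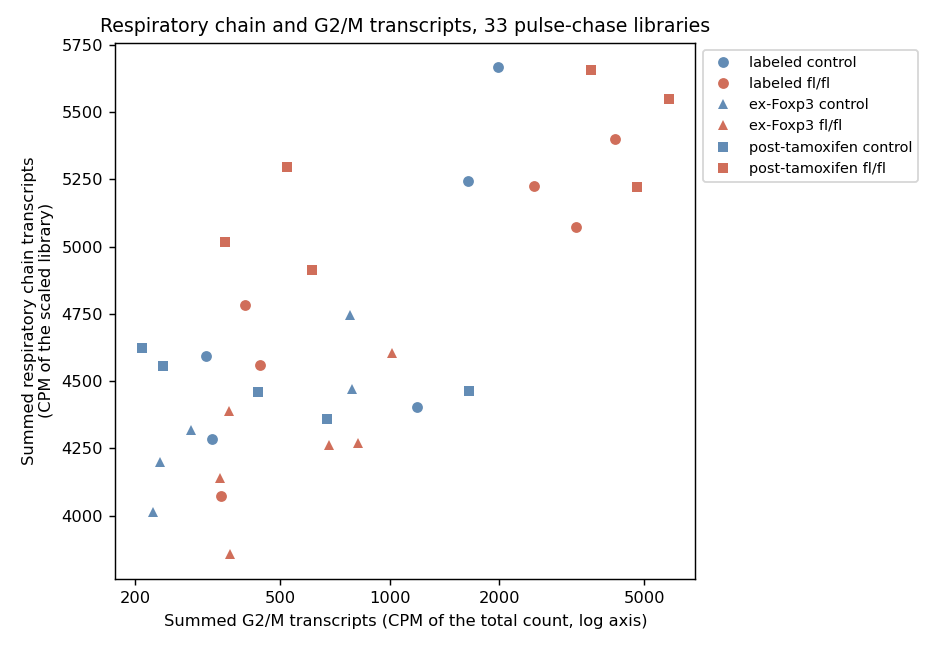
Summed CPM of the 85 members (y axis, which does not start at 0) against summed CPM of 20 G2/M genes (x axis, log scale) in the 33 pulse-chase libraries, by population and genotype. The fl/fl post-tamoxifen libraries 4 to 6 lie at 353 to 610 CPM of G2/M genes with member sums of 4914 to 5296 CPM, and libraries 1 to 3 at 3567 to 5852 CPM with sums of 5221 to 5657 CPM.

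Taking the 6 pulse-chase groups by their means, 42 of 77 members were highest in fl/fl post-tamoxifen cells, 17 in fl/fl labeled and 10 in control labeled cells. None was lowest in fl/fl post-tamoxifen cells. The lowest mean fell in fl/fl ex-Foxp3 cells for 25 members, in control ex-Foxp3 cells for 24 and in control post-tamoxifen cells for 21. Over all members the group means ran from 4253 CPM in fl/fl ex-Foxp3 through 4350 in control ex-Foxp3, 4492 in control post-tamoxifen, 4839 in control labeled and 4853 in fl/fl labeled to 5276 CPM in fl/fl post-tamoxifen cells. Each step between neighbours in that order was smaller than the larger of the SDs of the groups it joins. The labeled libraries spread most, from 4074 to 5668 CPM, with the higher sums in libraries of high G2/M sums such as control 3 (5668 CPM, G2/M 1978 CPM) and fl/fl 1 (5401 CPM, G2/M 4163 CPM). G2/M sums of control labeled libraries were 1190 to 1978 CPM in numbers 1 to 3 and 313 to 326 CPM in numbers 4 and 5. Those of fl/fl labeled libraries were 2495 to 4163 CPM in numbers 1 to 3 and 343 to 440 CPM in numbers 4 to 6. The part of dividing cells in that spread was not tested.

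Genes of neighbouring pathways were read from lists set beside the members. In fl/fl ex-Foxp3 against post-tamoxifen cells, 9.39% of all genes were called lower and 5.8% higher. None of 34 assembly factors of the chain was called there (median -0.05). Of 12 core and carrier genes outside the rule, 2 fell: Atpif1, the inhibitor protein of the ATP synthase (-0.73 ± 0.13, adjusted p = 0.000236), and Etfb, an electron transfer flavoprotein subunit (-0.61 ± 0.17, adjusted p = 0.0108). Both rose in fl/fl post-tamoxifen cells against control, by 0.81 ± 0.14 (adjusted p = 0.00062) and 0.60 ± 0.18 (adjusted p = 0.0351), with shared libraries, beside 3.9% of all genes called higher. Of 13 tricarboxylic acid cycle genes, 2 fell in ex-Foxp3 against post-tamoxifen fl/fl cells (median -0.17), among them Mdh2, malate dehydrogenase (-0.42 ± 0.10, adjusted p = 0.00426). With lists this short, 2 calls are no result about a list.

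Regulators of mitochondrial gene expression did not move one way. Of 22 tested, Myc fell in fl/fl ex-Foxp3 against post-tamoxifen cells (-1.63 ± 0.24, adjusted p = 3.99e-05). It also fell in control ex-Foxp3 against post-tamoxifen cells (-1.11 ± 0.25, adjusted p = 0.0074) and in fl/fl ex-Foxp3 against labeled cells (-0.89 ± 0.24, adjusted p = 0.0311). In the first of these comparisons Gabpb2, a partner of GABPA, rose by 0.26 ± 0.09 (adjusted p = 0.0429), Polrmt, the mitochondrial RNA polymerase, by 0.51 ± 0.17 (adjusted p = 0.0429) and Polg2, an accessory subunit of the mitochondrial DNA polymerase, by 0.56 ± 0.20 (adjusted p = 0.0491). Among all genes, 5.8% were called higher and 9.39% lower in that comparison. In fl/fl against control post-tamoxifen cells Polg, the catalytic subunit of the mitochondrial DNA polymerase, fell by 0.52 ± 0.11 (adjusted p = 0.00337) and Polrmt by 0.58 ± 0.18 (adjusted p = 0.0468). There 330 of 9921 genes tested were called lower.

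Other large families of housekeeping genes were set beside the members. In fl/fl ex-Foxp3 against post-tamoxifen cells, 47 of 80 cytosolic ribosomal protein genes were called lower (median -0.37), as were 4 of 76 mitochondrial ribosomal protein genes (median -0.17) and 6 of 38 proteasome genes (median -0.25), beside 9.39% of all genes. In the post-tamoxifen genotype comparison none of the 80 cytosolic ribosomal protein genes was called (median 0.07), while 4 of 76 mitochondrial ribosomal protein genes (median 0.14) and 4 of 38 proteasome genes (median 0.27) rose, beside 3.9% of all genes. For the mitochondrial ribosomal protein genes these shares are near or under those of all genes. The respiratory chain genes, with medians of -0.31 and 0.24, lay within the range of these families in both comparisons.

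The motif letters of the promoters were counted among the 20 genes called lower in fl/fl ex-Foxp3 against post-tamoxifen cells, 17 of which had a RefSeq window. CCGGAAG was in 6 of 17 and in 10 of the 52 other members, the NRF1 palindrome in 3 of 17 and 2 of 52, the YY1 consensus in 0 of 17 and 6 of 52, and CACGTG in 2 of 17 and 5 of 52. These counts are given without a test.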

How the data were processed

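Libraries came from sorted cells and a SMARTer stranded total RNA kit, per the labels' protocols. Reads were processed with bcl2fastq 2.17.1.14 and TopHat2 2.1.0 against mm10, per the submitters' processing notes; the counting settings, use of strand and gene annotation are not given in the sources used here. The deposited table holds raw counts per gene for all 41 libraries.

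The members, gene lists and tests were chosen with earlier results of these data known, and the genotype test of ex-Foxp3 against post-tamoxifen cells was added after seeing the data. Counts were tested with edgeR 4.0.16 (limma 3.58.1, R 4.3.3): TMM scaling, filterByExpr with a minimum count of 10, robust quasi-likelihood fit and Benjamini-Hochberg adjustment over all genes, threshold 0.05. The 8 chimera and the 33 pulse-chase libraries were fitted separately, the latter with 6 groups sharing one spread. Errors of log2 fold changes are standard errors. Script outputs were tested on simulated data, with changed genes drawn from all genes tested and libraries independent of one another. No test compares the experiments, and levels are compared between genes only per kilobase of GENCODE M21 exons. Where several mice of a group are described, p-values measure the spread between these libraries.

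Named genes are every called member where 12 or fewer were called, otherwise the 3 of smallest p and the one of largest fold change in each complex among those called, and the 3 of smallest p where none was called. The member of highest level per kilobase in each complex, the Sdh genes, the isoform sets and members under the filter are named too, as are up to 4 called genes of each other list. Members near the threshold, and Cox7a2l across comparisons, were named after their values were seen. Of the genes this rule names, 2 are not reported here. Mouse numbers were checked as pairs. Y-linked reads occurred in all 3 populations of control numbers 2 and 3, and deviations of same-numbered libraries correlated in every pair at 0.138 to 0.303 for ex-Foxp3 against labeled control cells, 0.144 to 0.36 for the same in fl/fl, 0.244 to 0.438 for labeled against post-tamoxifen fl/fl and 0.127 to 0.393 for ex-Foxp3 against post-tamoxifen fl/fl cells. Not every pair exceeded 0.1 for labeled against post-tamoxifen control (-0.0238 to 0.253) and ex-Foxp3 against post-tamoxifen control cells (0.0499 to 0.168). Alternatives were other scalings and filters, DESeq2 1.42.0, blocks, subsets and leaving out libraries. Promoter sequences are RefSeq's (GRCm38.p6).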

Additional observations from a re-analysis of the deposited data

Results flagged for a closer look

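Of 105 sets of values (a gene or sum in 1 group of 4 to 6 libraries) examined for a library far from the others, 3 held one, and chance alone gives such a library in about 1 in 20 sets. Cox7a2l was at 158.3 CPM in fl/fl post-tamoxifen library 6, while the other 5 lay between 116.0 and 128.8 CPM. Cox7c was at 43.1 CPM in control post-tamoxifen library 1, while the other 4 lay between 21.8 and 27.8 CPM. Ndufb10 was at 39.3 CPM in the same library, below the other 4 at 54.9 to 59.5 CPM. Without that library neither Cox7c nor Ndufb10 was called in the comparison that names it, whereas Cox7a2l kept its call against labeled fl/fl cells without fl/fl library 6 but lost its call against ex-Foxp3 fl/fl cells.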

How the results depend on the processing

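No result turned its direction of call under any alternative. The number of members called, given by setting, moved as follows. Apart from the mouse block, the share of all genes called is not reported for these settings. The counts are therefore not results about the members. Without a count filter it was 1 for ex-Foxp3 against labeled fl/fl cells and 0 for labeled against post-tamoxifen control cells, and with a minimum count of 30 it was 4 for the former. DESeq2 called 1 in the labeled genotype, 9 in the post-tamoxifen genotype and 4 in ex-Foxp3 against labeled fl/fl. The replicate block gave, with the number as block and the compared groups alone, 1 for the labeled and 3 for the post-tamoxifen genotype, and with the mouse as block 1 for ex-Foxp3 against labeled control, 5 for the same in fl/fl, 4 for labeled against post-tamoxifen control, 2 for the same in fl/fl and 2 for the genotype test of ex-Foxp3 against post-tamoxifen. The compared groups alone gave 2 for the post-tamoxifen genotype and 0 for labeled against post-tamoxifen control. Numbers 1 to 3 gave 1 for the labeled genotype, 0 for labeled against post-tamoxifen in both genotypes and 8 for ex-Foxp3 against post-tamoxifen fl/fl. Numbers 4 and above gave 1 for the post-tamoxifen genotype, 0 for ex-Foxp3 against labeled fl/fl, 0 for labeled against post-tamoxifen control and 13 for ex-Foxp3 against post-tamoxifen fl/fl. Without control numbers 2 and 3 the counts were 2 for the post-tamoxifen genotype, 1 for ex-Foxp3 against labeled fl/fl and 0 for labeled against post-tamoxifen control. Without the 2 post-tamoxifen libraries of low Foxp3 they were 1 for the labeled and 3 for the post-tamoxifen genotype. The cause was not tested. Leaving out 1 library gave 0 to 1 for the labeled genotype, 2 to 10 for the post-tamoxifen genotype, 0 to 5 for ex-Foxp3 against labeled fl/fl, 0 to 1 for labeled against post-tamoxifen control, 11 to 19 for ex-Foxp3 against post-tamoxifen fl/fl and 0 to 1 for its genotype test. The member median stayed between 0.16 and 0.33 in the post-tamoxifen genotype and between -0.36 and -0.30 in ex-Foxp3 against post-tamoxifen fl/fl cells. It changed sign in 2 alternatives for labeled against post-tamoxifen control, 2 for the chimera, 7 for the ex-Foxp3 and 3 for the labeled genotype. Depth limits the low genes: 8 members had under 20 counts in all libraries.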
